A study of Caenorhabditis elegans with 4 samples.

Results

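The REC-8 peaks of chromosome III are the rows of the series-wide peak list that lie on that chromosome, 1353 of the 7834 peaks of the list. The rule for a peak's membership was its chromosome name and no score or width. The chromosome was taken in 3 sections by the midpoint of each peak. The left arm ended at base 3722000 and held 257 peaks, the centre ran from there to base 10340000 and held 748, and the right arm held the remaining 348. The last left arm peak lay from 3719615 to 3720115 (score 6.26) and the first centre peak from 3726530 to 3726758 (score 5.01). The last centre peak ran from 10337502 to 10337892 (score 5.72) and the first right arm peak from 10351579 to 10351929 (score 11.58). All positions are in the WormBase WS220 build, and sites are given by position, since gene annotation and sequence of that build were not used here.

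REC-8 is a meiotic kleisin, the subunit that closes the cohesin ring. Cohesin holds sister chromatids together from premeiotic replication on, and in Caenorhabditis elegans REC-8 is found along the axes of meiotic chromosomes in the germline. Worm chromosomes are holocentric, so they have no single centromere that divides them. Each autosome instead has a central domain, rich in genes and poor in crossovers, between arms that hold more repeated sequence and most of the crossovers. The fem-2 gene, mutant in these worms, lies on chromosome III as well.

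Chromatin came from hermaphrodites of the strain fem-2(b245), grown at 20 °C as synchronised batches that pooled many whole animals, so germline and somatic nuclei were mixed; the labels call them young adults with a germline and, in the growth protocol, gravid. FEM-2 is a phosphatase needed for male fate, and no sample carried a wild-type fem-2 for comparison. Crosslinking used EGS and formaldehyde, and REC-8 was immunoprecipitated with a rabbit polyclonal antibody in 2 ChIP samples (replicates 1 and 2), and 2 input DNA samples are labelled, none of whose values enter here. Each ChIP sample has a peak list of its own (354 peaks on chromosome III in replicate 1 and 914 in replicate 2), and how the series-wide list combines them is not stated. Read depth is unknown from peak lists, so a peak missing from a list was not detected in that list and is not shown to be absent. The 2 ChIP samples form 1 group, and peaks, windows and chromosomes are not replicates, so no test was made. The 95% intervals below, exact Poisson for densities and exact Clopper-Pearson for shares, cover counting error only and treat peaks as independent.

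Chromosome III was the autosome most densely set with REC-8 peaks, in each of the 3 lists. The series-wide list held 98.2 peaks per Mb on it (93.0 to 104), against 68.6 (66.6 to 70.6) on the other 4 autosomes pooled. The nearest autosome was I with 90.4 (85.7 to 95.4), whose interval overlapped that of III. In replicate 1 chromosome III held 25.7 peaks per Mb (23.1 to 28.5) against 18.4 (17.4 to 19.5) on the others pooled, and again only I, with 22.8 (20.5 to 25.4), had an interval that reached that of III. In replicate 2 the values were 66.3 (62.1 to 70.8) against 46.4 (44.8 to 48.1), with I at 61.6 (57.7 to 65.7). The ratio of III to the others was thus 1.39 in replicate 1 and 1.43 in replicate 2, although the lists differ in length. Series-wide peaks covered 3.71% of chromosome III and 2.57% of the other autosomes. Coverage by replicate 1 was 1.31% against 1.09%, and by replicate 2 it was 4.0% against 2.77%. By covered length chromosome I lay above III in replicate 1, with 1.35%.

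The surplus was not even along the chromosome. The centre of III held 113 peaks per Mb (105 to 121) and the right arm 101 (90.7 to 112), ranks 1 and 3 among the 15 autosomal sections of the list. The left arm held 69.0 (60.9 to 78.0) and had rank 9. For the other autosomes, sections were set at the same fractions of their length. There the pooled densities were 78.8 in the centre, 59.2 in the left arm and 59.1 in the right arm. The excess of III over them was 1.71-fold in the right arm, 1.43-fold in the centre and 1.17-fold in the left arm. In replicate 2 the left arm of III was level with the others, at 39.2 peaks per Mb (33.1 to 46.1) against 38.6 (35.8 to 41.5). In replicate 1 it was denser, at 23.4 (18.7 to 28.8) against 16.8 (15.0 to 18.8). Of its 87 replicate 1 peaks, however, 18 lay in a single stretch of 11328 bp, described further on. The replicate 1 density without that stretch was not computed.

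**Figure D1:**
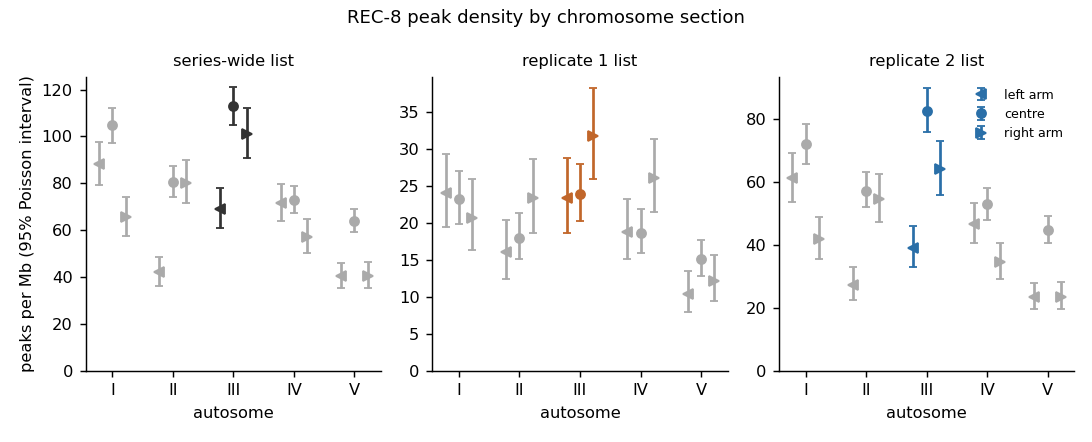
Peaks per Mb in the left arm (left-pointing triangles), centre (circles) and right arm (right-pointing triangles) of the 5 autosomes, with chromosome III in colour or black and the others in grey; bars are exact 95% Poisson intervals and each panel has its own axis from 0. In the series-wide list the centre of III reached 113 and its left arm 69.0 peaks per Mb, while in replicate 1 its right arm was the densest section with 31.7.

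The 2 ChIP samples placed the density differently. In replicate 2 the centre of III held 82.7 peaks per Mb (75.9 to 89.9) against 51.2 over both arms, a log2 ratio of 0.69. In replicate 1 the centre held 23.9 (20.3 to 27.9) against 27.4 over the arms, a log2 ratio of -0.20. The order of centre and arms thus turned between the samples, although in replicate 1 the arms' value lay within the interval of the centre. Short stretches without a replicate 2 peak, described further on, entered the replicate 1 counts. A left arm stretch of 11328 bp held 18 peaks, and right arm stretches of 7799 and 2592 bp held 8 and 4. In the centre such a stretch of 3401 bp held 2. The replicate 1 ratio without these stretches was not computed. The log2 ratio also changed sign on II (-0.12 in replicate 1 and 0.50 in replicate 2) and on IV (-0.26 and 0.37). The right arm carried the most replicate 1 peaks, 31.7 per Mb (26.0 to 38.2), more than any other autosomal section, the next being the right arm of IV with 26.1. Replicate 2 had 3.46 peaks for each replicate 1 peak in the centre of III, but 1.68 in the left arm and 2.03 in the right arm. A larger ratio in the centre than in either arm was seen on I, II, IV and V as well, where it ranged from 2.83 to 3.18 in the centre. Within the arms, the left was sparser than the right in every list, with a log2 ratio of left to right of -0.55 for all series-wide peaks, -0.44 for replicate 1 and -0.71 for replicate 2. Among the other autosomes, II had the same direction in each list (-0.93, -0.54 and -0.99), and I had the opposite (0.43, 0.22 and 0.54).

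Windows of 500 kb showed where the lists part. The 27 full windows of chromosome III held between 27 and 79 series-wide peaks, with a median of 47. Replicate 1 had between 6 and 30 peaks a window (median 11) and replicate 2 between 10 and 55 (median 33). The densest series-wide window, from 9500001 to 10000000, held 79 series-wide peaks, 11 of replicate 1 and 50 of replicate 2. The shorter piece after the last full window, from 13500001 to 13783553, was denser still, with 50 series-wide peaks or 176 per Mb. The densest replicate 2 window, from 8500001 to 9000000, held 55 of its peaks but 7 of replicate 1. Replicate 1 peaked elsewhere, in the first window from 1 to 500000, with 30 of its peaks against 18 of replicate 2. The sparsest windows all lay in the left arm: that from 500001 to 1000000 held 27 series-wide and 6 replicate 1 peaks, the fewest of either list (another window tied with it in the series-wide list), and that from 1000001 to 1500000 held the fewest replicate 2 peaks, 10. Over the 27 windows the counts of the replicates had a Pearson's r of 0.05 and a Spearman's rho of 0.26, and 0.37 and 0.39 without the first window. These are descriptions, since the windows share libraries and lie side by side.

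**Figure D2:**
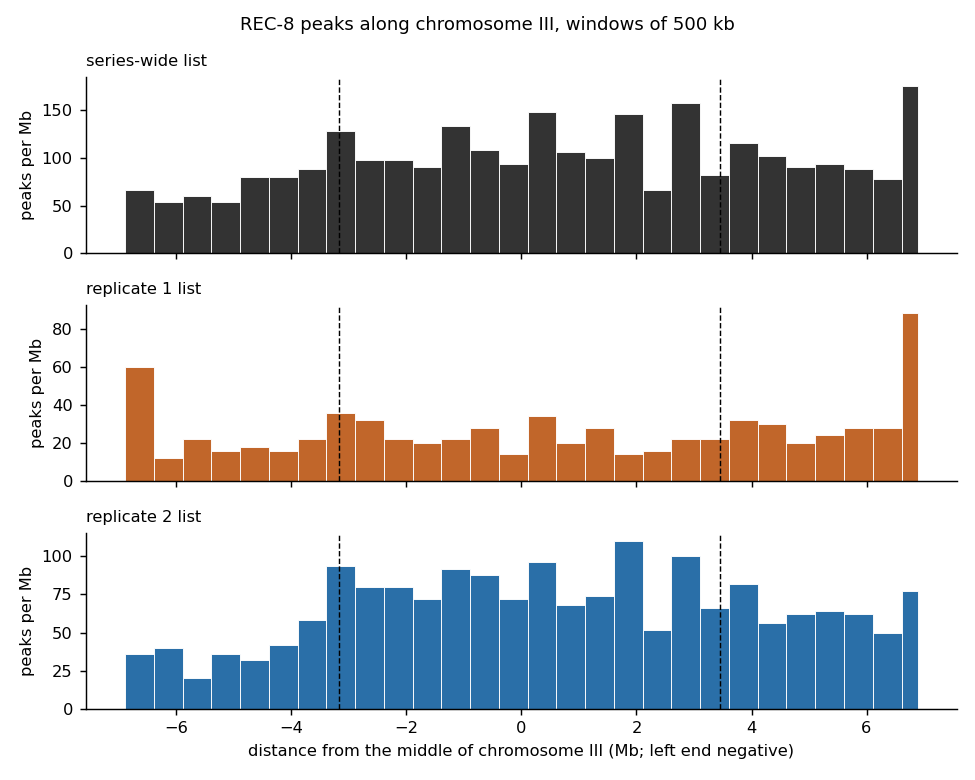
Peaks per Mb in windows of 500 kb along chromosome III in the series-wide list (black), replicate 1 (orange) and replicate 2 (blue), against the distance from the middle of the chromosome, with dashed lines at the section limits and a shorter last window. Replicate 1 is highest in the windows at both ends, with 60.0 and 88.2 peaks per Mb, where replicate 2 has 36.0 and 77.6.

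The chromosome's ends stood out in replicate 1. The last 500 kb of III, from 13283554 to 13783553, held 32 replicate 1 peaks, 37 replicate 2 peaks and 71 series-wide peaks. The first 500 kb held 30, 18 and 33. On the other 4 autosomes the end sections of the same length held between 3 and 17 replicate 1 peaks. Close groups of peaks made up part of this count, since 18 of the 30 replicate 1 peaks at the left end and 12 of the 32 at the right end fell in the runs described further on. Without them 12 and 20 peaks were left, of which 20 was still above the 17 of the last 500 kb of II and of the first 500 kb of I.

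Sites on III were slightly wider than elsewhere in the series-wide list and had no higher scores. Their median width was 308 bp (quartiles 214 and 438), against 289 bp (205 and 425) on the other autosomes, and the left arm had the widest, with a median of 326 bp against 302 in the centre and 306 in the right arm. Replicate 1 went the other way, with a median of 376 bp on III, the lowest of the 5 autosomes, against 414 on the others. In replicate 2 the medians were 510 and 502 bp. The direction of the width difference thus changed with the list. Series-wide peaks of 800 bp or more numbered 81 on III (5.99%) and 275 (5.83%) on the other autosomes. Width rose with score across the 1353 peaks (Spearman's rho 0.63), as on the other autosomes (0.61 to 0.67); in the left arm rho was 0.53.

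The scores were deposited without a stated meaning, so peaks were ranked within their list. Each was given a percentile among all nuclear peaks, 100 being the highest. The median series-wide percentile on III was 50.2, with 45.8 in the left arm, 51.9 in the centre and 49.7 in the right arm. The other autosomes pooled had 50.9. At the top of the list III was sparse relative to its number of peaks: 115 of its 1353 peaks (8.50%, 7.07 to 10.1) lay in the top 10% of the series-wide list, against 10.4% (9.57 to 11.3) on the other autosomes. In replicate 1 these were 14 of 354 (3.95%, 2.18 to 6.55) against 10.0% (8.43 to 11.8), and in replicate 2 69 of 914 (7.55%, 5.92 to 9.46) against 9.52% (8.53 to 10.6). III had the lowest share of the 5 autosomes in each list. By median percentile the replicate 1 peaks of III were the lowest of the 5 autosomes, 42.0 against 51.0 on the others, but not those of the left arm, at 56.1, where the centre had 39.4 and the right arm 39.6. In the top 10% of replicate 1 the centre, with 4 of 158 peaks, and the right arm, with 4 of 109, had the lowest 2 shares of the 15 sections. The left arm was lower than its counterparts as well. It had 6 of 87 (6.90%, 2.57 to 14.4), against 11.5% (8.21 to 15.6) in the pooled left arms of the others, with intervals that overlapped. Per Mb, however, III held 11.7 of the best 1000 series-wide peaks, close to the 12.2 of I and above the 9.50 of II, 9.55 of IV and 5.97 of V. Of the best 100, III held 8, or 0.580 per Mb, below the 0.972 of IV, 0.796 of I and 0.721 of II.

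**Figure D3:**
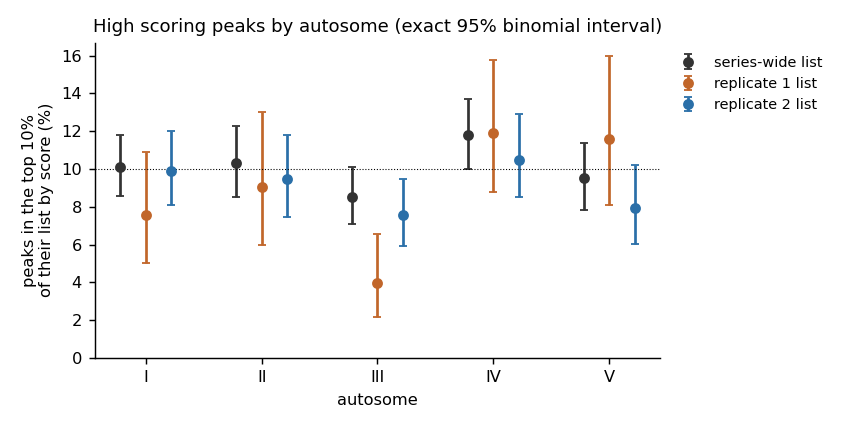
Share of the peaks of each autosome that lie in the top 10% of their list by score, in the series-wide list (black), replicate 1 (orange) and replicate 2 (blue), with exact 95% binomial intervals and a dotted line at 10%. Chromosome III has the lowest point of each list, and in replicate 1 its value of 3.95% has an interval (2.18 to 6.55) below that of the other autosomes pooled.

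The leading sites given next are the 3 best scoring of each section that met both replicates, so their spread over the sections was set by the choice. All were wider than the median peak of 308 bp, and width rose with score on III. The highest series-wide score was in the left arm, from 1618729 to 1619504 (776 bp, score 179.54, rank 17 of 7831), where replicate 1 scored 1897.38 (rank 74 of 2001) and replicate 2 scored 1966.60 (rank 76 of 5347). The next in that arm ran from 1080420 to 1081074 with a series-wide score of 117.72, a replicate 1 score of 489.43 and a replicate 2 score of 1177.77. The last of the 3, from 1950185 to 1950596, scored 99.91, 394.40 and 654.73. All 3 were 412 to 776 bp wide and had 1 peak in each replicate.

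In the centre the leading site ran from 6971779 to 6972314 and had a series-wide score of 115.28, where replicate 1 scored 554.97 and replicate 2 1004.21. It was followed by the site from 7854373 to 7854862 with 105.61, 429.27 and 792.57, and by that from 9780484 to 9781041 with 101.81, 561.66 and 1187.93. These sites ranked between 75 and 106 in the series-wide list but between 280 and 359 of 2001 in replicate 1, so none was among the top 10% of replicate 1. The highest scoring replicate 1 peak of the centre was not among them.

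In the right arm the first site ran from 10758865 to 10759456 and scored 133.17 series-wide, with replicate 1 at 871.33 and replicate 2 at 2106.70. The next, from 13447945 to 13448686, scored 117.21, and differed from the other leading sites in being far wider in replicate 1, with 1846 bp there (score 1959.89) against 782 bp in replicate 2 (1284.34). The last, from 13296044 to 13296759, scored 106.44, 683.38 and 1493.32. Replicate 2 gave the better rank in its own list at 6 of the 9 leading sites, although its list is longer.

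The widest sites had another character. In the centre the widest series-wide peak ran from 5941925 to 5944113 (2189 bp, score 36.98). It lay within a replicate 2 peak from 5938838 to 5944209 (5372 bp) with a score of 3100.00, the highest of that list on III, while the best replicate 1 score there was 430.59. In the right arm the widest ran from 10810075 to 10811829 (1755 bp, score 30.85), with 574.67 in replicate 1 and 1225.43 in replicate 2. The widest of the left arm, from 324736 to 329335 (4600 bp, score 8.79), overlapped 8 replicate 1 peaks of at most 526.44 and no replicate 2 peak. The widest series-wide peaks of the centre and right arm were thus met by both replicates, and that of the left arm was not.

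Peaks without support in either replicate were weak. The best of them scored 15.00 in the left arm (from 25618 to 25851, rank 2428), 10.53 in the centre (from 9500278 to 9500440) and 11.58 in the right arm (from 11967001 to 11967220). The longest stretches without a series-wide peak measured 111851 bp in the left arm (from 671299 to 783149), 161183 bp in the centre (from 9229007 to 9390189) and 101910 bp in the right arm (from 12714092 to 12816001). The replicate 2 list had its longest gaps of the centre and the right arm at nearly the same places, from 9240315 to 9390787 and from 12714106 to 12874431. The longest replicate 1 gaps lay elsewhere, from 1619502 to 1905696, from 6628107 to 6969772 and from 11343287 to 11590064.

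Overlap with the replicate lists was next read by section, counting at least 1 shared base. Of the 1353 series-wide peaks on III, 259 met peaks of both replicates (19.1%, 17.1 to 21.3), the same share as the 19.1% over all nuclear peaks. Replicate 2 alone was met by 676 (50%, 47.3 to 52.7), against 49.3% over all nuclear peaks. Neither replicate was met by 345 (25.5%, 23.2 to 27.9), against 26.9%, and replicate 1 alone by 73 (5.40%, 4.25 to 6.74), against 4.71%. All 4 shares were near the background, and nothing is read from them. Seen from the replicates, 274 of the 354 peaks that replicate 1 had on III were shared with replicate 2 (77.4%, 72.7 to 81.7), against 78.6% over all nuclear peaks. In the longer list of replicate 2, 259 of 914 were shared with replicate 1 (28.3%, 25.4 to 31.4), against 28.0%.

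The sections of III differed from each other in these shares. In the centre 446 of 748 peaks met replicate 2 alone (59.6%, 56.0 to 63.2), the highest share of the 15 autosomal sections, and 151 met neither (20.2%, 17.4 to 23.2), the lowest. On the other autosomes the pooled centre had 53.0% (51.0 to 54.9) and 24.8% (23.1 to 26.5). In the left arm 39 of 257 peaks met replicate 1 alone (15.2%, 11.0 to 20.2), the highest share of the 15, where the pooled left arms of the others had 4.46% (3.32 to 5.85) and the next section, the right arm of IV, had 10.4%. The centre of III had 18 such peaks (2.41%) and the right arm 16 (4.60%). Replicate 2 shared 52 of the 87 left arm peaks of replicate 1 (59.8%, 48.7 to 70.1), against 141 of 158 in the centre (89.2%, 83.3 to 93.6) and 81 of 109 in the right arm (74.3%, 65.1 to 82.2). A single left arm stretch of 11328 bp without a replicate 2 peak held 18 of the 87. The interval counts these 18 as separate peaks, so the low share rests in large part on that stretch. The shares met by both replicates were closer together, at 19.5%, 17.8% and 21.8% from left to right.

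**Figure D4:**
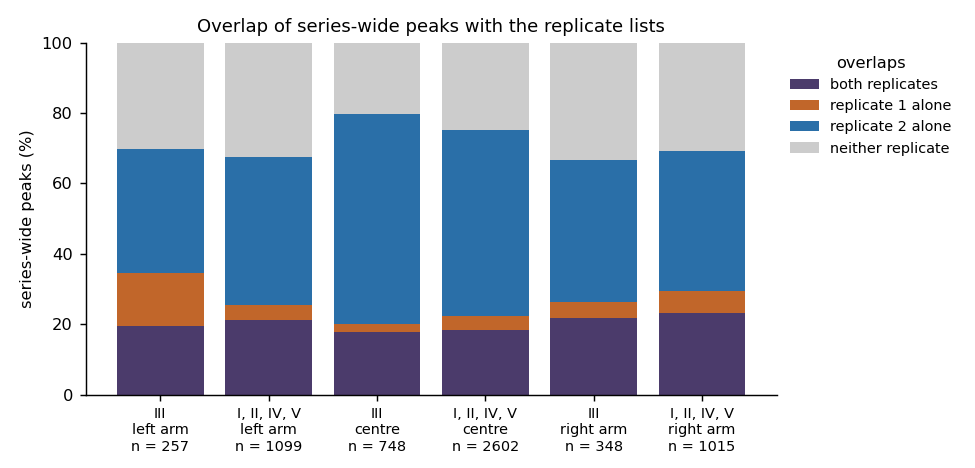
Stacked shares of series-wide peaks that overlap both replicates (purple), replicate 1 alone (orange), replicate 2 alone (blue) or neither (grey), for the sections of chromosome III and, pooled, of the other 4 autosomes. The orange part is 15.2% in the left arm of III against 4.46% in the left arms of the others, and the blue part is 59.6% in the centre of III.

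The classes differed in strength in the same way on III as on the other autosomes. On III the medians of peaks met by both replicates were a score of 34.8 and 538 bp, against 37.5 and 525 bp elsewhere. Those met by replicate 2 alone had 10.2 and 310 bp, against 10.2 and 294 bp. Those met by neither had 4.37 and 203 bp, against 4.51 and 196 bp. Peaks met by replicate 1 alone were as weak as the last, with a median score of 4.70 against 5.18, but wider, 343 bp against 256. In the top 10% of scores 107 of 115 peaks of III met both replicates (93.0%, against 93.3% on the other autosomes) and the other 8 met replicate 2 alone.

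Most of the replicate 1 peaks that replicate 2 lacked in the left arm belonged to a few stretches of several kilobases. These were found as runs, in which neighbouring series-wide peaks have under 1 kb between them, with at least 4 peaks. This definition was chosen after the values were seen. On III 35 runs were found, of which 18 met both replicates, 7 met replicate 2 alone and 10 met replicate 1 alone. Of those 10, 6 lay in the left arm, 1 in the centre and 3 in the right arm. The 6 of the left arm held 36 of its 39 peaks met by replicate 1 alone. With them left out, 3 of 221 peaks (1.36%, 0.281 to 3.92) met replicate 1 alone, and the left arm's density was 59.4 in place of 69.0 peaks per Mb. Treated alike, the sections of the other autosomes had shares from 0.993% in the right arm of II to 10.4% in the right arm of IV. The runs left out were those that met replicate 1 alone, so the share without them is lower by construction.

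Within the runs of the left arm, strong replicate 1 peaks stood over weak series-wide ones. The highest scoring replicate 1 peak of chromosome III, from 1017283 to 1020711 (3429 bp), had a score of 2672.70 and rank 46 of 2001. Replicate 2 had no peak there, and the 4 series-wide peaks within it scored between 2.27 and 6.74. Replicate 1 also had a peak of 5117 bp from 2077572 to 2082688 with a score of 2191.88 (rank 66), which overlapped 8 series-wide peaks with scores of 2.83 to 8.34. Its peak of 5001 bp from 2496964 to 2501964 scored 1672.34 (rank 83) and overlapped 7 with scores of 1.50 to 6.76. In both stretches replicate 2 again had no peak. The pattern was thus a single broad block in replicate 1, broken into weak pieces in the series-wide list. The replicate lists came from MACS and the series-wide list from MACS v2. Scores ran from 50.1 to 3166.75 in replicate 1 and from 1.31 to 203.92 in the series-wide list, so they compare only by rank. The part of the program version in this pattern was not tested.

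Smaller blocks of the same kind were a 3030 bp peak that began at base 1300144 with a score of 992.13, and a 2790 bp peak that began at base 3334280 with a score of 622.91. The longest run, from 321730 to 333057 (11328 bp), differed, since replicate 1 had 18 separate peaks in it with scores between 61.18 and 526.44. In the centre the run from 7444452 to 7447852 held 2 replicate 1 peaks with scores of 737.97 and 1366.32. The 3 runs of the right arm were weaker in replicate 1. The run from 13587205 to 13595003 had 11 series-wide peaks and 8 replicate 1 peaks of at most 287.76, that from 13596076 to 13598667 had 4 replicate 1 peaks of at most 239.17, and that from 12344998 to 12347618 had 1 of 130.92. Replicate 1 peaks covered from 76.2% to 100% of the 6 left arm runs and from 14.6% to 53.9% of the 3 right arm runs.

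**Figure D5:**
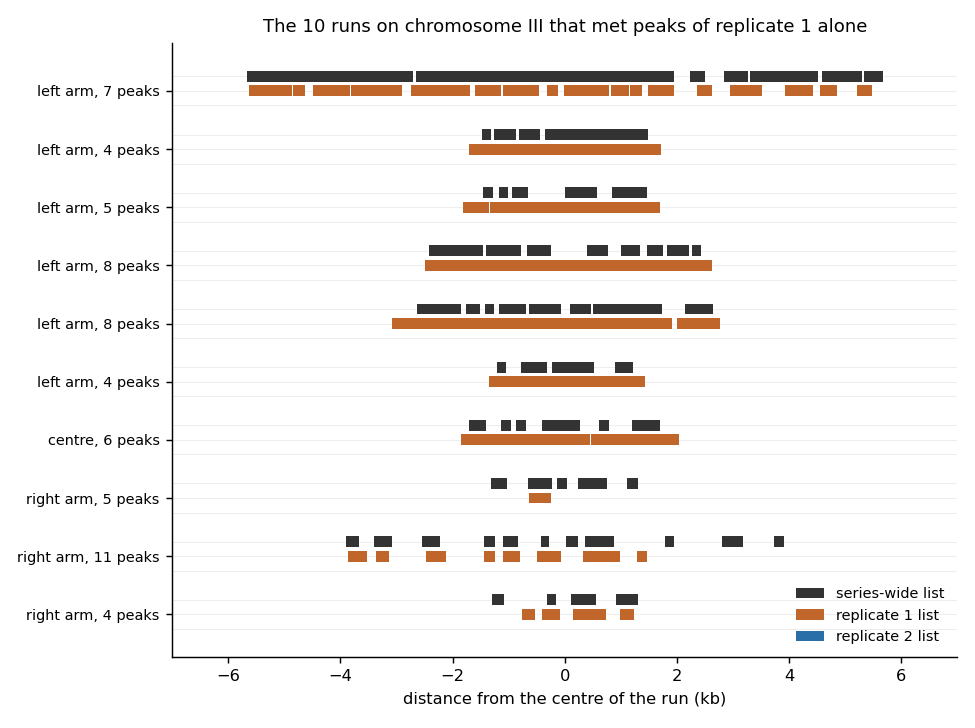
The 10 runs of at least 4 series-wide peaks on chromosome III that met peaks of replicate 1 alone, from left to right along the chromosome downwards, each drawn around its own centre in kb, with series-wide peaks in black, replicate 1 peaks in orange and an empty bottom line for replicate 2. Blocks of replicate 1 span most of the left arm runs, while the weaker runs of the right arm hold short replicate 1 peaks.

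Wide replicate 1 peaks without replicate 2 were found on every autosome. Chromosome III had 8 replicate 1 peaks of 2 kb or more, and none of the 8 overlapped a replicate 2 peak. On the other autosomes 30 of 43 had no replicate 2 peak. Of the 8 on III, 6 lay in the left arm, and 1 of those, from 449987 to 452496 (score 161.65), met no series-wide peak either. The broadest of the 8 was in the centre, from 5353068 to 5358577 (5510 bp), with a score of 222.75. In replicate 2, III had 7 peaks of that width, all in the centre, and 1 of them, from 9824349 to 9826587 (score 647.95), had no replicate 1 peak. The highest scoring replicate 2 peak of III that replicate 1 lacked lay in the right arm, from 12367944 to 12369771 (score 1063.43, rank 199 of 5347), over a series-wide peak with a score of 33.16. Whether repeated sequence, read mapping or the peak caller's settings bear on these blocks was not tested.

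Neighbouring peaks of III lay close together. The median distance between midpoints within a section was 4267 bp (quartiles 1238 and 12621) in the series-wide list, the shortest of the 5 autosomes, against 5496 bp on the others pooled. It was 3920 bp in the centre, 4256 bp in the right arm and 5770 bp in the left arm. Even placement of the same peaks would put 10187 bp between them, so the median was 0.419 of that distance, and 0.377 on the other autosomes. Singly, the other autosomes ranged from 0.335 on V to 0.456 on I, so III lay within their range. The part of peak number in the short distances was not tested. The replicate lists gave medians of 20288 bp (replicate 1) and 6886 bp (replicate 2), each the shortest of the 5 autosomes.

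Longer runs were more frequent on III than on the other autosomes. With under 1 kb between neighbours, 605 of the 1353 peaks (44.7%) stood in runs of 2 or more, against 39.3% on the other autosomes. Counted as merged sites, the peaks of III came to 974, or 70.7 per Mb, against 52.4 per Mb. Runs of at least 4 peaks came to 35 on III, 2.54 per Mb, and to 76 on the other 4 autosomes, 1.11 per Mb. Each of those autosomes had 18 to 20, while X had 51, or 2.88 per Mb, more than III. III thus held 31.5% of the 111 autosomal runs (23.0 to 41.0) on 16.7% of the autosomal length. Its share of the autosomal peaks also exceeded that of the length, with 1353 peaks on III and 4716 on the other 4. Per Mb, III had 2.30 times the runs of the others and 1.43 times the peaks. The sections of III had 2.42 runs per Mb in the left arm, 2.57 in the centre and 2.61 in the right arm, while no section of the other autosomes had more than 1.84. Without the runs that met replicate 1 alone, 25 remained on III and 68 on the others, 26.9% on III (18.2 to 37.1). Per Mb, this was 1.83 times the others. The sections of III then held 3, 16 and 6 from left to right, or 0.806, 2.42 and 1.74 per Mb, and the left arm no longer lay above the sections of the other autosomes, which had 0.485 to 1.57. A denser chromosome gives more close neighbours by number alone, and its part in this count was not tested.

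The 18 runs met by both replicates had best series-wide scores from 7.01 to 82.09. The highest was from 13462614 to 13466418, with 4 series-wide peaks of up to 82.09, followed by that from 3862877 to 3867781, with 7 peaks of up to 79.74. In the second, replicate 2 covered 94.6% of the run and replicate 1 covered 20.7%. A run with the opposite tilt lay close by, from 3895073 to 3897375, where a replicate 1 peak scored 2395.29 (rank 56 of 2001) and replicate 2 scored 843.02. The best series-wide score in each run had a median of 39.2 where both replicates were met, 11.2 for replicate 2 alone and 7.80 for replicate 1 alone. The ranges overlapped, since the best scores of the runs that met replicate 1 alone reached 11.13.

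Where both ChIP samples marked a site of III with exactly 1 peak each, sites with a higher score in replicate 1 tended to have a higher score in replicate 2. There were 247 such sites, with a Spearman's rho of 0.61 and a Pearson's r of 0.58 between the scores. By section rho was 0.64 in the left arm (52 sites), 0.63 in the centre (122) and 0.61 in the right arm (73). The other autosomes ranged from 0.42 on II to 0.65 on I. These correlations are descriptions across sites of the same 2 libraries. At the same sites replicate 2 peaks were the wider, with a median of 694 bp against 374 bp, and this held at 240 of the 247. In rho the left arm lay close to the other sections at sites of this kind. Median replicate 1 widths there were 372, 357 and 385 bp from left to right, and replicate 2 widths 594, 753 and 689 bp.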

How the data were processed

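The 3 deposited peak lists were used, 1 for each REC-8 ChIP sample and 1 for the series. Per the file headers they are on WormBase WS220, from MACS (replicates) and MACS v2 (series-wide). The submitters' processing notes name BWA and the ce10 build. Filters, thresholds and the use of the input are not given, and the treatment of reads with several matches can make or remove peaks in repeated sequence. Each peak has a score deposited by the authors, of unstated meaning, which was compared by rank within a list, apart from Pearson's r between the replicate lists. Mitochondrial peaks were left out. Each chromosome was taken to end with its last deposited peak (base 13783553 on III). The limits of the sections of III came with the definition of the set, and other autosomes were divided at the same fractions. Peaks overlapped when they shared 1 bp or more. Named peaks are, for each section, the 3 best scoring that overlap both replicates, the widest, the best that overlaps neither and the longest gap, with the extreme windows of each list and the best peak that each replicate has alone; runs, wide peaks and chromosome ends were added after the values were seen. The members, sections and comparisons were chosen with earlier results of these data known. Tables were made with pandas 2.3.3 and NumPy 2.4.6 under Python 3.11.15, intervals with SciPy 1.17.1 and plots with matplotlib 3.10.9. Overlap, merging and density were checked on simulated lists. Alternatives were other overlap rules, score and section limits, merging, covered bases and each replicate list alone. Whether the replicates are separate cultures is not stated.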

Additional observations from a re-analysis of the deposited data

How the results depend on the processing

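Of 48 alternative values, 38 kept their direction and stayed within a band. The band was the series-wide value plus or minus 1 SD of the 2 replicate values, or for shares the counting interval. It ran from -5210 to 13744 bp for the median distance and from -0.21 to 1.05 for centre to arms. A value within so wide a band says little. Where the SD was used, the replicate values that set the band were also among the 48. The series-wide list itself was not remade without a replicate, and each replicate's own list was read in its place. The log2 ratio of centre to arms on III (0.42) was -0.20 in the replicate 1 list and 0.69 in the replicate 2 list. In the series-wide list 6 other settings gave 0.19 to 0.56. The ratio of left to right arm stayed negative throughout (-0.72 to -0.37). The density of III relative to the other autosomes was 1.43 in the series-wide list, 1.39 in the replicate 1 list and 1.43 in the replicate 2 list. In the series-wide list it was 1.37 for peaks in both replicates and 1.35 after merging peaks under 1 kb apart. It was 1.38 there without the runs met by replicate 1 alone. The share met by both replicates fell from 19.1% to 12.9% with a reciprocal overlap of 50% and to 15.2% with replicate lists of the same length. In the replicate 1 list the median width was 376 bp, the median score percentile 42.0 and the median distance 20288 bp. In the replicate 2 list they were 510 bp, 50 and 6886 bp. The share of autosomal runs on III was 26.0% to 36.4% over 7 settings added after the data were seen. The interval for runs of at least 5 peaks (14.6 to 40.3) included its 16.7% share of the length. So did those in the replicate 2 list (14.6 to 46.3) and in the replicate 1 list (11.8 to 61.6). Its share of the autosomal peaks was larger than that of the length. The cause of these shifts was not tested. ChIP and input could not be compared in pairs because the input samples have no values here. Since read depth is unknown, a missing peak says little.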
